A study of Homo sapiens with 12 samples.

Results

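LSD1, encoded by KDM1A, belongs to a small group of enzymes that oxidise amines with the cofactor FAD and share one protein fold. The 6 genes described here are KDM1A, KDM1B, MAOA, MAOB, SMOX and PAOX, the drug target and the oxidases of the same fold, chosen by gene symbol from a table of 56508 symbols. All 6 were found. KDM1A and KDM1B encode LSD1 and LSD2, which remove methyl groups from lysine 4 of histone H3 and so act on chromatin. MAOA and MAOB encode the monoamine oxidases of the outer mitochondrial membrane, which break down serotonin, noradrenaline and dopamine. SMOX and PAOX encode spermine oxidase and the peroxisomal oxidase of acetylated polyamines. All of these enzymes make hydrogen peroxide as they turn over, and ORY-1001 belongs to a line of LSD1 inhibitors that grew out of tranylcypromine, an inhibitor of the monoamine oxidases.

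Messenger RNA was sequenced from H82 and H211. Both are human cell lines grown from small cell lung cancers, and both are labelled wild type. The 4 groups were H82 with ORY-1001 at 1 µM, H82 with vehicle (PBS), H211 with ORY-1001 at 1 µM and H211 with vehicle (PBS), each with 3 libraries, 12 in all. The labels give 7 days of treatment and the protocol gives 10 days, so the duration is uncertain. Nothing in the labels says that the replicates were separate cultures, so a p-value reflects only how far these libraries spread, and that spread may be technical. Each line stands for 1 background only. In bulk samples, fewer cells of a type and less RNA per cell cannot be told apart.

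Levels are the deposited TPM, which is per gene length and appears to have been rescaled between libraries, with column totals of 967415 to 1111988. Its depth is unknown, so no counting error can be given. The line labels were checked against markers. Neuroendocrine markers summed to 349.5 to 355.5 in H82 with ORY-1001 and 484.8 to 496 in H82 with vehicle, but 84.62 to 91.04 and 68.8 to 72.53 in those groups of H211. NCAM1 made up most of the H211 sums, at means of 70.51 and 56.45 TPM, beside 36.13 and 65.97 TPM in those groups of H82. NEUROD1 averaged 129.9 and 137.3 TPM in H82 and 1.902 and 1.685 TPM in H211. Tuft-cell markers summed to 981.2 to 1012 in H211 with ORY-1001 and 1162 to 1180 in H211 with vehicle, and to at most 11.26 in any H82 library. Transcripts of 18 blood-cell markers were uneven: they summed to 34.13, 36.92 and 143.2 in H82 with ORY-1001 and 48.81, 55.73 and 41.2 with vehicle, and to 47.46, 37.94 and 35.18 in H211 with ORY-1001 and 137.5, 251.2 and 44.08 with vehicle. Of these markers, 10 passed the filter. With ORY-1001 limma called 2 higher and 0 lower in H82, beside 19.1% of all genes higher and 23.9% lower. In H211 it called 0 of the 10, beside 18.6% of all genes. The 2 called in H82 were MPO and PRTN3 of granulocytes. Both passed the filter through the treated H82 group, where they were high, so their adjusted p is not taken as evidence. MPO was at 8.707, 8.547 and 24.26 TPM in H82 with ORY-1001 and at 0.08491, 0.03768 and 0.02838 TPM with vehicle (adjusted p = 0.0141), and PRTN3 at 2.025, 1.66 and 1.38 TPM with ORY-1001 and at 0 in all 3 vehicle libraries (adjusted p = 0.0283). HBB, PPBP and PF4 were at 0 in every treated library of either line and every H82 vehicle library, with means of at most 0.2804 TPM in H211 with vehicle. The globins HBG1, HBG2, HBA1 and HBA2 leaned lower in treated H82, though none was called (limma adjusted p = 0.16 to 0.775). Their log2 fold changes were -1.855, -2.711, -1.431 and -0.408. HBG2 was at 0, 0.1204 and 53.02 TPM in H82 with ORY-1001 and at 23.9, 28.15 and 22.43 TPM with vehicle. In H211, 1 of the 2 fibroblast markers tested rose, DCN, at 68.05, 62.12 and 61.45 TPM with ORY-1001 and 3.915, 3.955 and 4.422 TPM with vehicle (adjusted p = 6.08e-07). The 6 markers summed to 64.81 to 71.24 and 6.158 to 6.374 TPM in those groups, and DCN made up most of each sum. The other markers averaged at most 1.088 TPM in those groups. COL1A1, COL1A2, COL3A1 and LUM had higher means with ORY-1001. They were at 1.088, 1.029, 0.2705 and 0.6855 TPM, against 0.7761, 0.8852, 0.08985 and 0.1708 TPM with vehicle. PDGFRB had a lower mean, at 0.05956 TPM against 0.2313 TPM with vehicle. COL1A2, the other marker tested, was not called (limma adjusted p = 0.521).

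An alternative chosen after seeing the data, and taken over from an earlier analysis of them, leaves out 4 libraries: H82 ORY-1001 replicate 3, H211 ORY-1001 replicate 3 and H211 vehicle replicates 1 and 2. Single blood markers set them apart from others of their group, not one summed level. H211 ORY-1001 replicate 3 had the lowest sum of its group but held MPO at 8.571 TPM, against 0.2073 and 0.1916 TPM in replicates 1 and 2. The set keeps H82 ORY-1001 replicates 1 and 2, which also held MPO, so the remaining libraries still carry blood transcripts. It also leaves 1 vehicle library in H211, which is assumed to vary like the other groups.

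The genes lie on 5 chromosomes of GRCh38 (GENCODE release 29, which need not be the annotation behind the deposited values). KDM1A is on chromosome 1 (23019443 to 23083689, plus strand) and KDM1B on chromosome 6 (18155329 to 18223853, plus strand). SMOX is on chromosome 20 (4120980 to 4187747, plus strand) and PAOX on chromosome 10 (133379234 to 133391694, plus strand). MAOA (43654907 to 43746824, plus strand) and MAOB (43766611 to 43882447, minus strand) are neighbours on chromosome X whose 3′ ends face each other across 19.8 kb. An antisense gene, AL031428.1, covers most of KDM1A on the other strand, with group means of at most 0.03212, and AL360181.3 overlaps 861 bases of PAOX, with group means of at most 0.0739. Whether strand was used in counting was not stated in the labels. A pair of microRNA genes inside KDM1A was at 0 in every group. No other gene overlapped KDM1B, MAOA, MAOB or SMOX on this annotation.

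Because MAOA and MAOB lie side by side but differed between the lines in opposite directions, as described further on, the 250 bases before their RefSeq starts (GRCh38.p14) are shown in gene orientation, 5′ to 3′. Capitals mark GC boxes, the sites of Sp1-type factors, read as GGGCGG or its reverse complement CCGCCC, with overlapping copies counted separately. The MAOA stretch is chrX:43656049-43656298 on the plus strand and the MAOB stretch is chrX:43882451-43882700 on the minus strand.
MAOA: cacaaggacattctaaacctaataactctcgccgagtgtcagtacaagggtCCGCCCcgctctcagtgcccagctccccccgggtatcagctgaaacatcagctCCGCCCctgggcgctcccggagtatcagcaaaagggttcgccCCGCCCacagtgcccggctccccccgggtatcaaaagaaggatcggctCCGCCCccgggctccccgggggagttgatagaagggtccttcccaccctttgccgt
MAOB: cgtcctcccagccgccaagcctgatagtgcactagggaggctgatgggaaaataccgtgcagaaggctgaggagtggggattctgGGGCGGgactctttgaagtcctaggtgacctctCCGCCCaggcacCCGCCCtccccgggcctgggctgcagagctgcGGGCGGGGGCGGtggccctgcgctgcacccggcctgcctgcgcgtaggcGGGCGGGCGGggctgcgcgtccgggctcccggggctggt
The MAOA stretch held 4 GC boxes, all as CCGCCC, and 63.2% G and C. The MAOB stretch held 7, of which 5 read GGGCGG and 2 read CCGCCC, and 72% G and C. Of 35116 RefSeq promoter stretches of the same length, 42.6% held at least 1 GC box, 7.6% held at least 4 and 1.1% held at least 7, and the median content of G and C was 58%. KDM1A and KDM1B held 1 and 3 boxes, and SMOX and PAOX were not in the promoter table. These matches describe the letters only.

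KDM1A was by far the most abundant of the 6 messages and was level across the groups. It stood at 181, 195.4 and 194.9 TPM in the 3 H82 libraries with ORY-1001 and at 181.9, 184.2 and 186.7 TPM in those with vehicle. In H211 it stood at 183.5, 188.5 and 192.8 TPM with ORY-1001 and at 182.4, 184 and 187.4 TPM with vehicle. All 4 groups overlapped, and KDM1A lay above 95.1% to 95.4% of the tested genes in every group. On the log2(TPM + 1) scale, on which all differences below are given, the 95% confidence interval of the ORY-1001 effect ran from -0.04 to 0.13 in H82 and from -0.05 to 0.11 in H211, that is from 0.976-fold to 1.09-fold and from 0.964-fold to 1.08-fold. Message of the target was thus bounded within about these folds, although limma's adjusted p of 0.354 and 0.663 does not by itself show that the levels were equal. ORY-1001 acts on the protein, whose amount and activity were not measured here.

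KDM1B, the paralogue of LSD1 that works with the nucleosome-binding protein GLYR1, was lower with ORY-1001 in H82. Its 3 H82 libraries with ORY-1001 held 19.9, 20.34 and 19.95 TPM, against 22.98, 23.08 and 22.85 TPM with vehicle. Those groups did not overlap, and both were tight: the means were 20.07 ± 0.2425 and 22.97 ± 0.117 TPM (SD, n = 3 each). The log2 fold change was -0.19 (SE 0.04, limma adjusted p = 0.00302), a fall to 87.4% of the vehicle mean. In H211 KDM1B held 29.81, 29.16 and 29.97 TPM with ORY-1001 and 30.73, 31.06 and 29.27 TPM with vehicle, which overlapped (log2 fold change -0.03, adjusted p = 0.638). The effects in the lines differed by 0.15 on the log2 scale (adjusted p = 0.0592), which missed the threshold of 0.05 and reached 0.0428 with no filter on low values. Relative to KDM1A in the same library, KDM1B made up 10.2% to 11% in H82 with ORY-1001, 12.2% to 12.6% in H82 with vehicle, 15.5% to 16.3% in H211 with ORY-1001 and 15.6% to 16.9% in H211 with vehicle.

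MAOA, the oxidase that prefers serotonin and noradrenaline, showed the largest change among these genes. It held 7.304, 6.958 and 7.379 TPM in H82 with ORY-1001, against 24.47, 19.71 and 17.92 TPM in H82 with vehicle. The groups were far apart, and every treated library lay below every vehicle library. MAOA averaged 7.21 ± 0.225 TPM with ORY-1001 and 20.7 ± 3.38 TPM with vehicle (SD, n = 3 each), so it fell to 34.9% of the vehicle level (log2 fold change -1.39, SE 0.13, 95% confidence interval -1.67 to -1.11, limma adjusted p = 8.52e-06). Of 15456 genes tested in H82, 121 had a lower log2 fold change than MAOA. By level, MAOA lay above 45.4% of tested genes in H82 with ORY-1001 and above 66.6% in H82 with vehicle.

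Within the treated H82 libraries, MAOA was at 7.379 TPM in the treated replicate with a blood-marker sum of 143.2 and at 7.304 and 6.958 TPM in those with 34.13 and 36.92. Without the 4 libraries named above, its log2 fold change was -1.41 (adjusted p = 0.000456). All 3 treated H82 libraries held more MPO and PRTN3 than any H82 vehicle library, though both genes passed the filter through that treated group. HBG2, by contrast, was at 0, 0.1204 and 53.02 TPM with ORY-1001 and at 23.9, 28.15 and 22.43 TPM with vehicle in H82. The part of blood transcripts in the result was not tested. Most neuroendocrine markers also moved with MAOA, 4 of 5 tested being lower in treated H82 and 0 higher, where 23.9% of all genes were lower. NEUROD1 was not called, at 129.9 TPM with ORY-1001 and 137.3 TPM with vehicle (limma adjusted p = 0.4995). The neuroendocrine sums were 349.5 to 355.5 with ORY-1001 and 484.8 to 496 with vehicle, and the part of these markers in the result was not tested.

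In H211, MAOA was near the bottom of the range, where the log2(TPM + 1) scale leaves little room for a fall. The part of this limit in the difference between the lines, given below, was not tested. It held 1.096, 0.8183 and 0.7532 TPM with ORY-1001 and 0.5853, 0.4091 and 0.8337 TPM with vehicle. These values overlapped, and the log2 fold change was 0.24 (95% confidence interval -0.05 to 0.52, adjusted p = 0.245). The effect of ORY-1001 on MAOA differed between the lines by 1.63 on the log2 scale (H211 minus H82; SE 0.18, adjusted p = 7.36e-05), and by 1.14 to 2 under every alternative that was run. Without the 4 libraries named above, with 1 vehicle library left in H211, the difference was 1.5 (adjusted p = 0.00757).

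MAOB, the oxidase that prefers phenylethylamine, was scarce in all cultures. It held 0.09995, 0.06965 and 0.105 TPM in H82 with ORY-1001 and 0.04727, 0 and 0.139 TPM with vehicle. In H211 it held 1.029, 1.057 and 1.127 TPM with ORY-1001 and 1.19, 0.9467 and 1.385 TPM with vehicle. Within each line the groups overlapped, with log2 fold changes of 0.04 in H82 and -0.07 in H211 (adjusted p = 0.788 and 0.717).

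**Figure D1:**
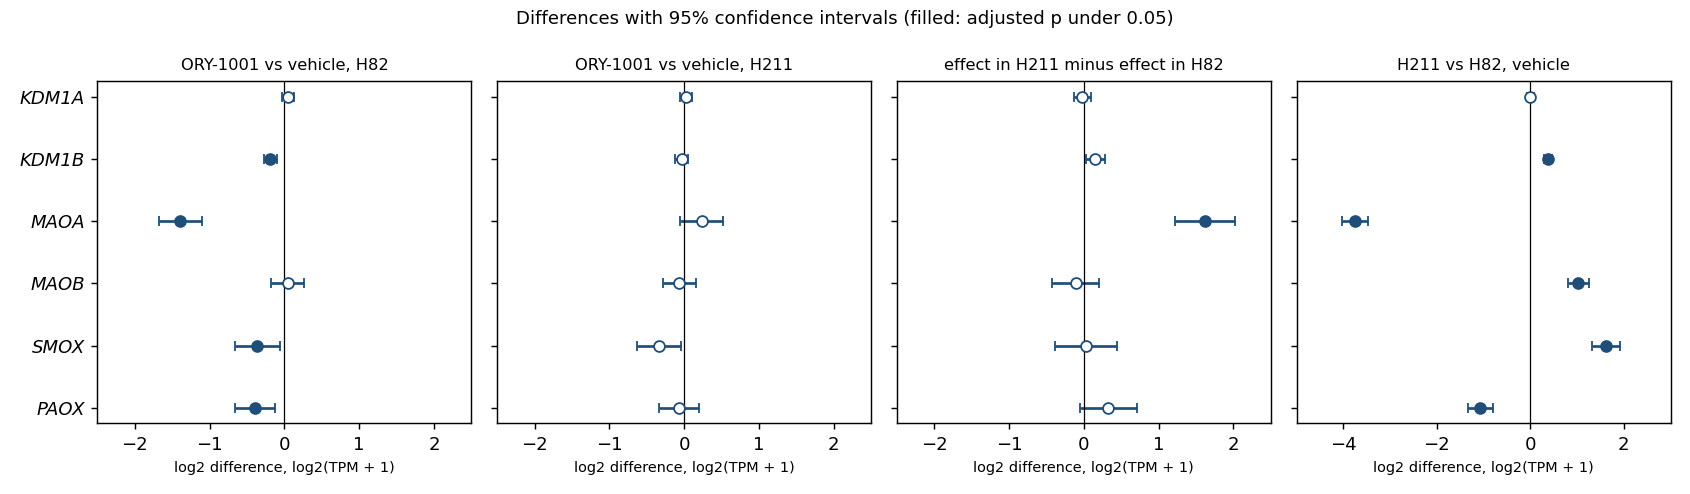
Log2 differences on the log2(TPM + 1) scale (x axes) of the 6 genes (rows) with 95% confidence intervals from limma, for ORY-1001 against vehicle in H82 and in H211, for the difference of these effects, and for H211 against H82 with vehicle; filled points have adjusted p under 0.05, which in the last panel is no evidence for MAOA, MAOB, SMOX and PAOX, since these passed the filter through the line where they were high. In the first panel the filled point of PAOX is not taken as evidence either, since it passed the filter through the vehicle group of H82. MAOA stands apart in the first panel at -1.39 and in the third at 1.63, while the KDM1A intervals all include 0.

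SMOX and PAOX, which both end in spermidine or putrescine but start from different substrates, were low and leaned downward with ORY-1001. SMOX held 0.3171, 0.4689 and 0.5168 TPM in H82 with ORY-1001 and 0.6984, 0.7656 and 1.073 TPM with vehicle, groups that did not overlap (log2 fold change -0.36, adjusted p = 0.0494). That call sat at the threshold. It was lost when any 1 of the 6 H82 libraries was left out (adjusted p = 0.148, 0.0826 and 0.0621 without ORY-1001 replicates 1, 2 and 3, and 0.0521, 0.0754 and 0.171 without vehicle replicates 1, 2 and 3), and also without H211 ORY-1001 replicate 1 (0.0636) or H211 vehicle replicate 3 (0.0583). A fit blocked on replicate number gave 0.0556. In H211, where SMOX was more abundant, it held 3.447, 3.017 and 4.043 TPM with ORY-1001 and 5.674, 4.033 and 4.351 TPM with vehicle. One treated value lay just inside the vehicle range, and the log2 fold change of -0.33 had an adjusted p of 0.114. The effects in the 2 lines differed by 0.03 with a 95% confidence interval of -0.39 to 0.45.

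PAOX held 0.9258, 0.5998 and 1.111 TPM in H82 with ORY-1001 and 1.791, 1.332 and 1.256 TPM with vehicle, again without overlap (log2 fold change -0.39, adjusted p = 0.023). PAOX reached 1 TPM in 3 vehicle libraries and 1 treated library of H82, and so passed the filter through the vehicle group, where it was higher. Its adjusted p and lack of overlap in H82 are therefore not taken as evidence of a fall. Without ORY-1001 replicate 2 of H82 the adjusted p was 0.0944 and without vehicle replicate 1 of H82 it was 0.0929, and it was 0.0722 with a pseudocount of 0.1 and 0.0803 with the H82 libraries alone. In H211 PAOX held 0.09467, 0.1338 and 0.127 TPM with ORY-1001 and 0.2234, 0.1356 and 0.1529 TPM with vehicle, all far below 1 (adjusted p = 0.77). Summed over both genes, H82 held 1.07 to 1.63 TPM with ORY-1001 and 2.1 to 2.49 TPM with vehicle, and H211 held 3.15 to 4.17 TPM with ORY-1001 and 4.17 to 5.9 TPM with vehicle.

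Across the group, 4 of the 6 genes were lower with ORY-1001 in H82 and 0 were higher. This count and the median given below include PAOX, which passed the filter through the vehicle group of H82 and whose call is not taken as evidence. Of all 15456 genes tested in H82, 43.0% were called in either direction, 19.1% higher and 23.9% lower, so calls of any size were common in that line. By size, 31.4%, 17.6% and 15.9% of tested genes had a lower log2 fold change in H82 than KDM1B, SMOX and PAOX. MAOA was also among the 3.42% of genes that were called and moved at least 2-fold on this scale. The median log2 fold change of the 6 was -0.27 in H82, beside -0.02 over all genes tested. In H211, limma called 0 of the 6, beside 18.6% of all genes (8.95% higher and 9.61% lower), and 1 of the 6, SMOX, had an unadjusted p under 0.05. The median of the 6 in H211 was -0.05, beside 0 for all genes to 2 decimals. The difference between the effects was called for 1 of the 6, MAOA, beside 32.1% of all genes, of which 17.8% were higher and 14.3% lower in H211 minus H82. MAOA was also among the 5.40% that differed at least 2-fold.

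The vehicle cultures of the lines were then compared. KDM1A overlapped between them, at 185 ± 2.57 TPM in H211 and 184 ± 2.43 TPM in H82 (log2 difference 0, 95% confidence interval -0.08 to 0.08). KDM1B was higher in H211, at 30.4 ± 0.955 TPM against 23 ± 0.117 TPM in H82, a ratio of 1.32 (adjusted p = 2.45e-06). The other 4 oxidases differed far more. MAOA was at 0.609 ± 0.213 TPM in H211 and 20.7 ± 3.38 TPM in H82, 34-fold lower in H211 (log2 difference -3.75), while MAOB was at 1.17 ± 0.22 TPM in H211 and 0.0621 ± 0.0707 TPM in H82 (log2 difference 1.03). SMOX was at 4.69 ± 0.870 TPM in H211 and 0.846 ± 0.2 TPM in H82, 5.54-fold higher in H211 (log2 difference 1.62), and PAOX was at 0.171 ± 0.0465 TPM in H211 and 1.46 ± 0.29 TPM in H82 (log2 difference -1.07). For none of these 4 genes did the vehicle libraries of the lines overlap. That is no evidence, since each passed the filter through the line where it was high, and the share of all genes without such overlap was not counted.

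The monoamine oxidases and the polyamine oxidases each leaned a different way in the 2 lines, whereas KDM1A exceeded KDM1B in both. Calls were the rule rather than the exception here, since 80.5% of all genes differed between the vehicle cultures, 39.7% being higher and 40.8% lower in H211, and 37.9% differed at least 2-fold. MAOB reached 1 TPM in 5 libraries of H211 and 0 of H82, PAOX in 4 of H82 and 0 of H211, MAOA in 6 of H82 and 1 of H211, and SMOX in 6 of H211 and 1 of H82. These 4 genes passed the filter on low values through the line where they were high, so their differences between the lines are given as levels, with no test. Dividing by totals without mitochondrial genes shifted the median of all genes between the lines from -0.02 to 0.14. Under that scaling KDM1A stood at 0.19 on the log2 scale (adjusted p = 0.00551), close to the shifted median.

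**Figure D2:**
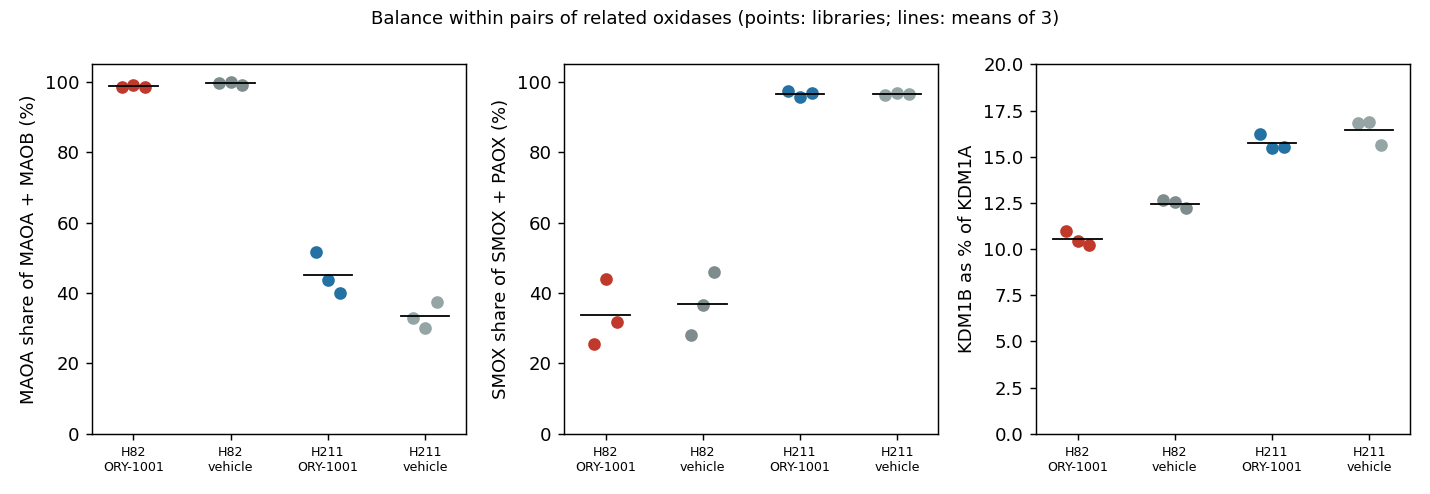
Share of MAOA in the MAOA and MAOB total, share of SMOX in the SMOX and PAOX total, and KDM1B as a percent of KDM1A (y axes, percent), in each library of the 4 groups (x axes); points are libraries and lines are means of 3. MAOA makes up at least 98.6% of its pair in H82 and at most 51.58% in H211, whereas SMOX makes up at most 46.07% of its pair in H82 and at least 95.75% in H211.

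Within a library, the MAOA share of the MAOA and MAOB total was 98.6% to 99.0% in H82 with ORY-1001 and 99.2% to 100% with vehicle, so the fall of MAOA left it the main monoamine oxidase message of that line. In H211 the share was 40.1% to 51.6% with ORY-1001 and 30.2% to 37.6% with vehicle. These ranges did not overlap, but the ratio was not tested and both genes were near or below 1 TPM there. Neither gene passed its own test, and how often such ratios part without overlap was not counted. The summed MAOA and MAOB level was 7.31 ± 0.244 TPM with ORY-1001 and 20.8 ± 3.35 TPM with vehicle in H82, and 1.96 ± 0.143 TPM with ORY-1001 and 1.78 ± 0.432 TPM with vehicle in H211 (SD, n = 3 each). The neighbours of the pair within 500 kb, NDP and EFHC2, had group means of at most 0.605 and 0.139 TPM. They were looked up after the values of MAOA and MAOB had been seen.

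Levels over all 6 genes ranked in the same way in both lines at the top. KDM1A came first and made up 86.4% to 87.3% of the summed level in H82 with ORY-1001 and 78.4% to 81.2% with vehicle, and 83.8% to 84.7% in H211 with ORY-1001 and 82.6% to 83.9% with vehicle. In H82 with vehicle, KDM1B and MAOA followed at 22.97 and 20.7 TPM, ranges that overlapped, whereas with ORY-1001 KDM1B lay clear of MAOA. PAOX and SMOX came next and MAOB last. In H211 the order below KDM1A was KDM1B, SMOX, MAOB, MAOA and PAOX in both groups; MAOB and MAOA overlapped with ORY-1001 but not with vehicle.

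Genes with the most similar profile over the 12 libraries were found by Pearson correlation of log2(TPM + 1), among 11347 or 11348 genes with a group mean of at least 5. For MAOA these were TNNT1, ASPHD1 and OBSL1 (r = 0.998, 0.998 and 0.996). TNNT1 averaged 31.3 ± 2.23 TPM in H82 with ORY-1001 and 95.3 ± 8.11 TPM with vehicle, and 3.59 ± 0.699 and 3.26 ± 0.805 TPM in those groups of H211. For KDM1B they were SBK1, FAM168A and C14orf37 (r = 0.997, 0.996 and 0.996), and for SMOX they were SRC, HS6ST1 and PDGFC (r = 0.992, 0.992 and 0.991). For MAOB they were SRP54, AMT and AL390719.1 (r = 0.995, 0.993 and 0.993), and for PAOX LNX2, MPDZ and GATAD1 (r = 0.99, 0.985 and 0.981). For KDM1A the closest were NPIPB12, MACF1 and AL391244.1 at r = 0.82, 0.809 and 0.792. The libraries fall into 2 lines, so a gene that parts them alike has a high r: 1250 genes were above 0.95 with MAOA and 1306 with KDM1B, but 0 with KDM1A.

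Related genes in 6 lists were described by counts. Their counts stand beside 43.0% of all genes called in H82 (19.1% higher and 23.9% lower, median log2 fold change -0.02) and 18.6% in H211 (8.95% higher and 9.61% lower, median 0 to 2 decimals). Among 16 partners of LSD1 and LSD2, 2 were higher and 5 lower with ORY-1001 in H82 (43.8% called, median -0.06), a share near that of all genes. SNAI1, a repressor that recruits LSD1 through its SNAG domain, rose 2.56-fold, to 46.4 ± 1.43 TPM with ORY-1001 against 18.1 ± 0.889 TPM with vehicle (limma adjusted p = 1.24e-07). The deacetylase HDAC2 and the zinc finger protein ZMYM3 fell to 84.3% and 72.1% of vehicle (adjusted p = 0.000233 and 0.0003755). In H211, 2 of the 16 were higher and 3 lower (31.2% called, median -0.05). GFI1B, another SNAG factor, rose to 24.8 ± 1.05 TPM against 13.5 ± 0.927 TPM with vehicle (adjusted p = 0.00252, and 0.161 with a pseudocount of 0.1). HDAC1 and GLYR1, the partner of LSD2, fell to 83.4% and 81.9% of vehicle (adjusted p = 0.000191 and 0.0013).

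Of 20 polyamine genes tested, 7 were higher and 5 lower in H82 (60% called, against 43.0% of all genes; median 0.05), and 6 higher and 5 lower in H211 (55% called, against 18.6%; median -0.06). ODC1, the first enzyme of polyamine synthesis, rose in both lines, to 418 ± 9.33 TPM with ORY-1001 against 283 ± 10.6 TPM with vehicle in H82 (adjusted p = 5.3e-07) and to 185 ± 2.98 against 148 ± 2.01 TPM in H211 (adjusted p = 0.000103). In H82, EIF5A, the translation factor that carries hypusine, rose 1.44-fold, while DHPS, which starts the making of hypusine from spermidine, fell to 63.8% of vehicle (adjusted p = 1.13e-06 and 7.12e-07). In H211, SRM, spermidine synthase, rose 1.32-fold and AMD1, which supplies its aminopropyl donor, fell to 71.1% of vehicle (adjusted p = 0.000213 and 3.67e-05).

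Of 17 monoamine genes, 7 passed the filter. The 10 that did not, among them TH, TPH1, TPH2, DBH and the transporters SLC6A2, SLC6A3, SLC6A4, SLC18A1 and SLC18A2, stayed at or below 1.102 TPM in every library. In H82, 2 of the 7 were lower and 1 higher (42.9% called, against 43.0% of all genes; median -0.25). ALDH2, the mitochondrial enzyme that clears aldehydes made by monoamine oxidases among others, fell to 55.2 ± 5.75 TPM with ORY-1001 against 104 ± 5.48 TPM with vehicle in H82 (log2 fold change -0.91, adjusted p = 2.32e-06). It fell further in H211, to 20.1 ± 0.878 TPM against 63.9 ± 2.4 TPM with vehicle (log2 fold change -1.62, adjusted p = 5.24e-08), and the effects differed (log2 difference -0.71, adjusted p = 0.000318). DCN of the fibroblast markers also changed in H211, at 61.45 to 68.05 TPM with ORY-1001 and 3.915 to 4.422 TPM with vehicle. COL1A2, the other such marker tested, was not called in H211. The part of DCN in the H211 results was not tested. AKR1B1, an aldose reductase, fell in H82 to 83.8% of vehicle (adjusted p = 0.000362). The gene that rose was DDC, aromatic amino acid decarboxylase, at 2.12 ± 0.361 TPM with ORY-1001 and 0.923 ± 0.188 TPM with vehicle (log2 fold change 0.7, adjusted p = 0.0298). The DDC call was lost in 5 of 23 alternatives, 4 of which left out 1 library, namely H82 ORY-1001 replicate 2 or 3 or H82 vehicle replicate 1 or 2 (limma adjusted p = 0.0557 to 0.0936). In H211, 2 of the 7 were lower and 0 higher (median -0.13). The other was GCH1, which starts the synthesis of tetrahydrobiopterin, at 77.5% of vehicle (adjusted p = 0.0412). That call was lost in 12 of 24 alternatives, 7 of which left out 1 library (adjusted p = 0.0525 and 0.0538 without replicate 2 of either H82 group, 0.142 and 0.0926 without H211 ORY-1001 replicate 1 or 2, and 0.121, 0.0977 and 0.0708 without H211 vehicle replicates 1, 2 and 3).

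**Figure D3:**
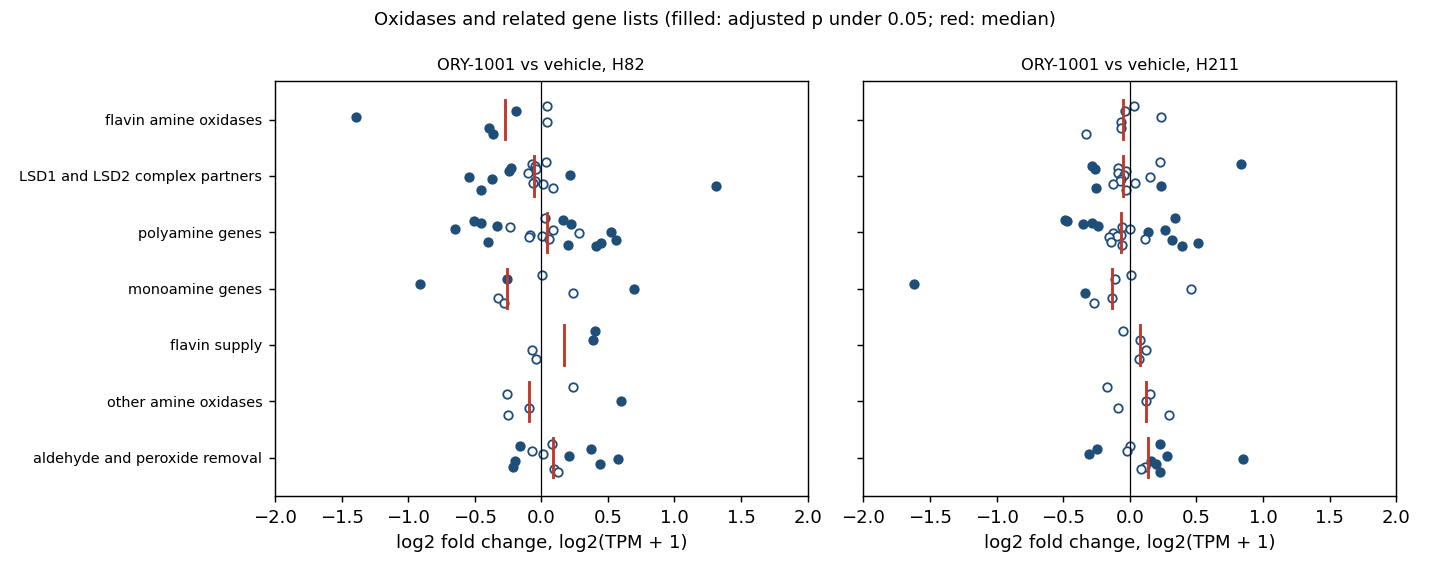
Log2 fold changes with ORY-1001 on the log2(TPM + 1) scale (x axes) of the 6 oxidases and of 6 lists of related genes (rows) in H82 and H211; each point is a gene, filled where adjusted p is under 0.05, and red lines are medians. MAOA at -1.39 is the lowest point in H82, and ALDH2 of the monoamine list at -1.62 the lowest in H211.

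Of 6 genes that supply flavin, 4 passed the filter. In H82, 2 were higher and 0 lower: RFK, riboflavin kinase, and FLAD1, FAD synthase, rose 1.32-fold and 1.33-fold (adjusted p = 8.58e-05 and 0.000821). In H211, limma called 0 of the 4, and 1, the mitochondrial carrier SLC25A32, had an unadjusted p under 0.05 (adjusted p = 0.0673). Among 7 other amine oxidases and relatives of the fold, 5 passed the filter; LOX, the copper-dependent lysyl oxidase, rose 1.57-fold in H82 (adjusted p = 0.000343) and limma called 0 in H211, with 0 at an unadjusted p under 0.05. Of 12 genes that clear aldehydes and hydrogen peroxide, 4 were higher and 3 lower in H82 (58.3% called, against 43.0% of all genes; median 0.09) and 6 higher and 2 lower in H211 (66.7% called, against 18.6%; median 0.14). GPX1, a glutathione peroxidase, rose 1.5-fold in H82 and 1.82-fold in H211 (adjusted p = 5.73e-05 and 9.21e-06). GPX4, the peroxidase of lipid peroxides, was lower in H82, at 87% of vehicle (adjusted p = 0.000914), and higher in H211, at 112% (adjusted p = 0.0101, and 0.0511 to 0.267 under 3 alternatives). In H82, PRDX1, a peroxiredoxin, rose 1.36-fold (adjusted p = 1.71e-05), and in H211 CAT, catalase, rose 1.22-fold (adjusted p = 0.00128, and 0.116 without the 4 libraries named above). Without those 4 libraries, fewer partners, polyamine, monoamine and clearing genes were called in H211, and fewer of all genes too. That fit kept 1 vehicle library of H211, so its counts are not set beside those above.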

How the data were processed

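The deposited signal is TPM per gene symbol, with 1 column for each of 12 libraries, and the authors appear to have rescaled it, since column totals differ. The submitters' processing notes name sleuth 0.30.0, Salmon 1.1.0, STAR 2.5.2b, Trimmomatic 0.36, R 4.0.4, DESeq2 and featureCounts from Subread 1.5.2, and the build hg38, without saying what each did. Rescaled TPM keeps no depth. No column was without a sample; 27 rows carried dates in place of symbols.

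Tests had been planned for TPM and were kept. Values were taken as log2(TPM + 1), which understates changes of low genes, and the 15456 genes at 1 or more in at least 3 libraries were tested. One limma 3.58.1 model (R 4.3.3) took all 12 libraries and estimated 4 group means (eBayes with a trend, two-sided, Benjamini-Hochberg over all genes, called under 0.05). All 6 members passed. The fit was also run on simulated data in which far fewer genes changed than were called here, so that run is no support for the calls. Alternatives changed the pseudocount, filter, scaling, prior, weights, block and libraries. One gene of the monoamine list is not reported here and was left out of its counts. The genes and lists were chosen with earlier results of these data known; up to 3 called genes per list and comparison were named by smallest p. Ratios given as folds or percents are of group means.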

Additional observations from a re-analysis of the deposited data

Results flagged for a closer look

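The measured effect of ORY-1001 on MAOA differed between the 2 lines: that in H211 minus that in H82 was 1.63 on the log2 scale (1.626, limma adjusted p = 7.36e-05). MAOA averaged 0.6093 TPM in H211 with vehicle, which leaves little room for a fall on the log2(TPM + 1) scale. The part of this limit in the difference was not tested. MAOA was lower in all 3 treated H82 libraries than in any vehicle library.

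In the related lists, 29 of 64 tested genes (45.3%) also differed between the lines in their effects, beside 32.1% of all genes. Of these, 23 were among the genes named by smallest p in a list for an ORY-1001 comparison, and their values follow. The log2 difference, H211 minus H82, was negative for SNAI1 (-1.08), ALDH2 (-0.71), AMD1 (-0.65), ALDH3A2 (-0.61), ATP13A3 (-0.58), GCH1 (-0.58), LOX (-0.48), FLAD1 (-0.45), EIF5A (-0.38), RFK (-0.31), PRDX1 (-0.25), ODC1 (-0.24), GLYR1 (-0.24) and HDAC1 (-0.22). It was positive for GFI1B (0.90), DHPS (0.64), ZMYM3 (0.42), AOC3 (0.41), GPX4 (0.36), PRDX2 (0.33), GPX1 (0.28), HDAC2 (0.22) and SLC25A32 (0.19). AOC3 passed the filter through the vehicle group of H82, where it was highest. Its call is therefore not taken as evidence, though the counts include it. Among these 23, adjusted p ran from 1.43e-05 for SNAI1 to 0.0473 for GPX1. The other 6 were INSM1, PHF21A, HMG20B, ZMYM2, SMS and ALDH9A1, with adjusted p of 0.000954 to 0.0491. The difference was lost for AOC3 in 18 of 22 alternatives, for GPX1 in 15 of 23 and for SLC25A32 in 12 of 23. For those 3 genes, 11, 9 and 8 of these left out a single library, with adjusted p of 0.0623 to 0.0991, 0.0574 to 0.103 and 0.0527 to 0.078.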

How the results depend on the processing

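For the 6 oxidases, 511 of 553 values under an alternative kept their direction and side of the threshold. This total is no support for the calls. It includes values that were not called and stayed so. The tests of MAOA, MAOB, SMOX and PAOX between the lines are in it too, as is the PAOX effect in H82, and these are not taken as evidence. The fall of MAOA in H82 kept both in 24 of 24 alternatives (log2 fold change -1.5 to -1.07, adjusted p at most 0.000456), and that of KDM1B in 24 of 24 (-0.2 to -0.12). Those of SMOX and PAOX were lost in 14 of 22 and 4 of 23. Members called in H82 numbered 2 in place of 4 under a filter of 5 in 3 libraries, where 3 members were tested, and with H82 libraries alone, where 4 were, and 2 to 4 leaving out 1 library. With no filter 2 members in place of 1 differed between the lines. Without the 4 libraries chosen on single blood markers, which leaves H211 with 1 vehicle library that is assumed to vary like the other groups, 559 genes were called in H211 in place of 2868, and 2899 in place of 4956 for the difference between the lines. Leaving out 1 library gave 5728 to 6647 genes in H82, 1960 to 3042 in H211, 4299 to 4614 for the difference and 11989 to 12395 between the vehicle cultures; quantile normalization gave 3296 higher and 3304 lower in H82, and totals without mitochondrial genes 961 higher and 2016 lower in H211, where the reported split was 1383 and 1485. A fit that blocked on replicate number called 6429, 2497, 4701 and 12401 genes, and the SMOX call was lost; same-numbered libraries of a line had deviations correlated at -0.08 to 0.04, so the numbers were not taken as pairs.

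Signs that turned belonged to values near 0. KDM1A turned to -0.043 in H82, -0.032 in H211, 0.011 for the difference and -0.076 between the vehicle cultures with quantile normalization, to -0.034 in H211 without mitochondrial genes and -0.011 in H211 without the 4 libraries. Leaving out 1 library, it was -0.05405 to 0.000892 for the difference and -0.008533 to 0.01198 between the vehicle cultures, where array weights gave -0.0046. KDM1B in H211 was 0.01032 without the 4 libraries. MAOB was -0.00099 to 0.0929 in H82 and -0.1423 to 0.0042 in H211 leaving out 1 library. The SMOX difference between the lines was -0.081 with a pseudocount of 5, -0.035 without mitochondrial genes, -0.0094 with array weights and -0.058 to 0.15 leaving out 1 library. The causes were not tested. Depth is unknown, and MAOB, PAOX and, in H82, SMOX lie near or below 1 TPM.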
